A study of Homo sapiens with 6 samples.

Results

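The MITF family of transcription factors and a set of genes that mark melanocytic cells were examined in H295R cells, a line derived from a human adrenocortical carcinoma. The 9 genes were taken by name from the deposited table of 57342 genes and comprised the 4 family members MITF, TFEB, TFE3 and TFEC, the melanosome genes PMEL, MLANA, GPNMB and DCT, and POU3F2, which encodes a factor that regulates MITF in melanoma. Of these, 7 had a count in every library and were tested, TFEC reached at most 1 count in a library, and MLANA had no count in any library. MITF, PMEL and POU3F2 also belong to a module that the study drew from these same libraries, so the list is no independent evidence of a direction.

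The study compared the parental H295R line with H295R-PM-Ptc+ cells, a subpopulation amplified after sorting for cells that carry the Hedgehog receptor Patched (Ptch1) on their surface, to ask which genes distinguish the sorted cells. RNA from 3 libraries of each group was sequenced, without treatment and with both groups in the same culture medium. The H295R-PM-Ptc+ cells were sorted as a population, and the sources used here do not say whether the 3 libraries of a group came from separate cultures, so the p-values measure only the spread between these libraries, which may be technical.

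MITF, TFEB, TFE3 and TFEC are basic helix-loop-helix leucine zipper proteins that bind E-box and related elements as homodimers or as heterodimers with one another. MITF is the main regulator of the melanocyte lineage, in which it drives the genes of pigment synthesis and of the melanosome, whereas TFEB and TFE3 activate lysosomal and autophagy genes when mTORC1 is inactive. An antibody against the melanocytic antigen Melan-A, the product of MLANA, is used in adrenal pathology because it also stains adrenocortical tumors, through a cross-reacting antigen of steroid-producing cells.

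The libraries held 23264403 to 25813247 counts, and 16710 genes passed the filter on low counts. Replicate 1 of each group stood apart from replicates 2 and 3, with a chi-square per gene of 19.5 to 28.4 against them, compared with 6.02 between replicates 2 and 3 labelled H295R and 10.4 between those labelled H295R-PM-Ptc+. PTCH1, the gene of the receptor used for sorting, had 441, 559 and 579 counts under the H295R label and 248, 326 and 319 under the H295R-PM-Ptc+ label. It was thus lower in the libraries labelled as sorted, with a log2 fold change of -0.81 (SE 0.147, edgeR adjusted p = 0.0207), and the adjusted p rose to 0.0799 without replicate 2 labelled H295R, to 0.0921 without its replicate 3 and to 0.0618 without replicate 2 labelled H295R-PM-Ptc+. The log2 fold change stayed at -0.78, -0.74 and -0.86 in these 3 fits, and the blocked fit gave an adjusted p of 1.72e-06. In 6 of 6 cases, a column of the deposited counts was a scaled copy of the column that carries the other group's name and the same replicate code in the study's normalized table. The counts alone cannot tell which naming is right. All values below are therefore given by label, and each fold change is the H295R-PM-Ptc+ label over the H295R label. If the names in the counts are the exchanged ones, every direction given here turns.

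Of the 7 tested genes, MITF passed the threshold of an adjusted p under 0.05 in edgeR and stood higher under the H295R-PM-Ptc+ label, and none was lower. DESeq2 gave the same counts, and at an unadjusted p under 0.05 there were 2 genes higher, MITF and PMEL, and none lower, where 17.3% of all tested genes passed in either direction. Over all tested genes, 3.73% were called, with 2.42% called higher and 1.32% lower, 404 and 220 genes. PMEL had the next smallest adjusted p, 0.104, and was called only when the replicate number was added to the model as a block. TFE3, TFEB, GPNMB, DCT and POU3F2 passed the threshold in neither fit. The groups did not overlap for 2 of the 7 genes, MITF and PMEL, against 23.5% of all tested genes.

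**Figure D1:**
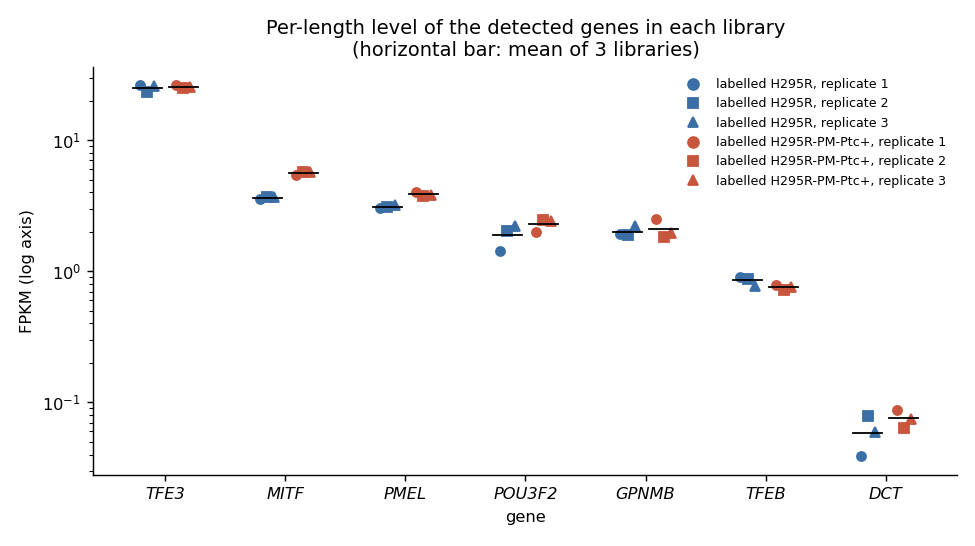
Level per length (FPKM, log axis) of the 7 detected genes in each of the 6 libraries, with the horizontal bar at the mean of 3 libraries and the marker shape giving the replicate number. TFE3 lies highest at about the same level in both groups, and the MITF points labelled H295R-PM-Ptc+, mean 5.59, lie above those labelled H295R, mean 3.64.

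MITF lies on chromosome 3, from 69739435 to 69968337 on the plus strand (hg38, Ensembl annotation), with 21 separate exon blocks that sum to 7193 bases. It had 607, 669 and 660 counts in replicates 1, 2 and 3 labelled H295R and 990, 1017 and 947 under the H295R-PM-Ptc+ label. Scaled to library size (CPM), this was 25.4, 26.3 and 26.7 against 38.7, 40.9 and 40.9. All 3 libraries labelled H295R-PM-Ptc+ thus lay above all 3 labelled H295R, with an SD of 0.668 and 1.26 CPM inside the groups. MITF was 1.54-fold higher (95% interval 1.37 to 1.72), a log2 fold change of 0.62 (SE 0.0718, edgeR adjusted p = 0.00212). It ranked 97th by p-value among the 16710 tested genes and 293rd by size among the 404 called higher. Leaving out any 1 library kept the log2 fold change between 0.60 and 0.64 and the adjusted p at or below 0.0199.

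MITF is transcribed from several start sites, of which the most downstream gives the melanocyte isoform MITF-M. In melanocytes, the promoter of that isoform is driven by CREB through a cyclic AMP response element and by LEF1 through a TCF/LEF element, together with SOX10 and PAX3. The upstream sequence of that start (position 69936592) is shown because it holds letters of both elements, with CTTTGAT (TCF/LEF) and TGACGTCA (cyclic AMP response element) in capitals. It covers chr3:69936342-69936586 on the plus strand of GRCh38.p14 and was taken from RefSeq.
MITF upstream of the MITF-M start: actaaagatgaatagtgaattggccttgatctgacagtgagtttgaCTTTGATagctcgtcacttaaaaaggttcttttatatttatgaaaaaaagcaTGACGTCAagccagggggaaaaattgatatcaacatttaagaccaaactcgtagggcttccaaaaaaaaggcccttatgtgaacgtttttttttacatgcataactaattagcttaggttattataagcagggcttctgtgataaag
The first base of CTTTGAT lies 204 bases before the start and that of TGACGTCA 152 bases before it. Windows of the other MITF starts, at 69739464 and 69763811, held neither of them. The windows were also searched for the E-box CATGTG, for its extended form TCATGTG, which contains it, and for CACGTG, the palindromic E-box, on both strands, and no window of MITF held these. Of 35116 promoter windows of 300 bases, 2.62% held CTTTGAT and 1.85% TGACGTCA. The counts sum all transcripts of a gene, so they do not show which of these starts was used, and a match in letters is not evidence of binding.

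TFE3, on the X chromosome (49028726 to 49043486, minus strand, 4283 exonic bases), was the most abundant family member. Its counts were 2672, 2510 and 2723 under the H295R label and 2873, 2666 and 2509 under the H295R-PM-Ptc+ label. The groups overlapped, at 98.8 to 111.8 CPM and 107.2 to 112.4 CPM. The log2 fold change was 0.03 (95% interval -0.14 to 0.21, adjusted p = 0.891), and it turned to -0.02 without replicate 2 labelled H295R. A TFE3 change of the size seen for MITF lies outside that interval.

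TFEB, the family member best known for lysosomal control, lies on chromosome 6 (41683978 to 41736259, minus strand, 5648 exonic bases). It had 122, 126 and 108 counts under the H295R label and 113, 101 and 99 under the H295R-PM-Ptc+ label. In CPM, these were 5.11, 4.96 and 4.37 against 4.42, 4.06 and 4.28, so that replicate 3 labelled H295R overlapped the other group. The log2 fold change was -0.18 (95% interval -0.48 to 0.12, adjusted p = 0.557), with a lower value in each of the 3 same-numbered pairs.

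TFEC, which is best known from cells of the macrophage lineage, lies on chromosome 7 (115935148 to 116159896, minus strand, 8644 exonic bases). It had no count under the H295R label and 0, 1 and 1 under the H295R-PM-Ptc+ label. This is under the floor of 3 counts, which corresponded to 0.0136 to 0.015 FPKM (CPM per kilobase of exon), so a difference was not detectable at this depth.

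Per length, TFE3 was the highest of the 4 factors, at 25.0 ± 1.65 FPKM under the H295R label and 25.5 ± 0.633 FPKM under the H295R-PM-Ptc+ label (SD, n = 3). MITF followed at 3.64 ± 0.0928 and 5.59 ± 0.175 FPKM, and TFEB at 0.852 ± 0.0691 and 0.753 ± 0.0319 FPKM. No neighbors in this order overlapped in any library. As a share of the summed per-length level of the 4 genes, MITF made up 12.4 ± 0.852% under the H295R label and 17.5 ± 0.803% under the H295R-PM-Ptc+ label. TFE3 made up 84.7 ± 1.03% and 80.1 ± 0.763% of the same sum. MITF was thus a minor part of the family transcripts in both groups, and all 3 shares labelled H295R-PM-Ptc+ (16.6%, 18.1% and 17.9%) lay above those labelled H295R (11.6%, 13.3% and 12.3%).

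Ratios of counts inside a library do not depend on how libraries are scaled. MITF had 0.245 ± 0.0199 counts per count of TFE3 under the H295R label and 0.368 ± 0.0202 under the H295R-PM-Ptc+ label. Per count of TFEB, it had 5.47 ± 0.584 and 9.47 ± 0.66. The ratios of both groups were fully separated, which gave the smallest p that 3 against 3 libraries allow in an exact permutation test (two-sided p = 0.1, 0.125 after adjustment over the 5 ratios computed). The groups were likewise separated for the ratio of MITF to PMEL, at 2.15 ± 0.0222 against 2.67 ± 0.176 counts, and to GPNMB, at 2.2 ± 0.173 against 3.29 ± 0.621 counts, each with the same exact p = 0.1. Per count of POU3F2 it had 2.92 ± 0.646 and 3.62 ± 0.294, which overlapped (exact permutation p = 0.3). With 3 libraries a group, no such ratio can pass 0.05.

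**Figure D2:**
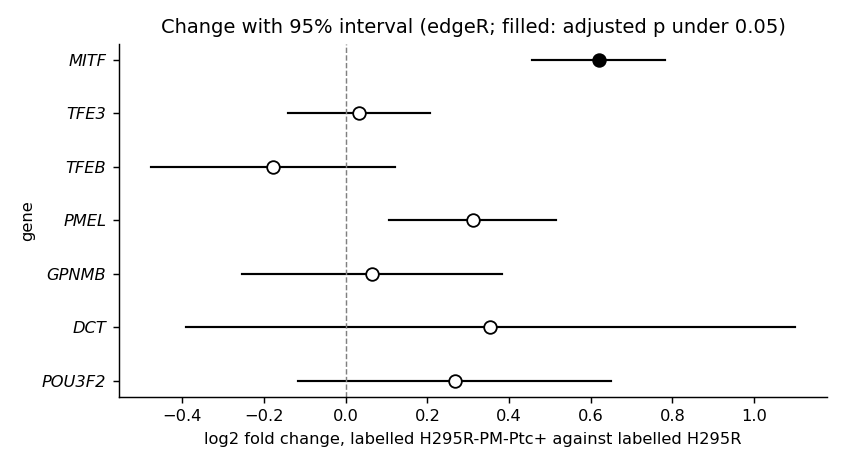
Log2 fold change of the 7 tested genes, H295R-PM-Ptc+ label over H295R label, with the 95% interval from edgeR; a filled point has an adjusted p under 0.05. The interval of MITF, 0.46 to 0.78, lies farthest from 0, that of PMEL, 0.11 to 0.52, also lies above 0 without passing the adjusted threshold, and the other 5 intervals cross 0.

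PMEL encodes the structural protein that forms the amyloid fibrils of the melanosome, and its gene is a textbook target of MITF. It lies on chromosome 12 (55954105 to 55973317, minus strand, 3901 exonic bases). It had 281, 308 and 310 counts under the H295R label and 401, 366 and 342 under the H295R-PM-Ptc+ label, or 11.8, 12.1 and 12.5 CPM against 15.7, 14.7 and 14.8 CPM. The groups did not overlap, and PMEL was higher in each of the 3 same-numbered pairs. The log2 fold change was 0.31 (SE 0.0902, 95% interval 0.11 to 0.52), a ratio of 1.24, with an unadjusted p of 0.00739 from edgeR (0.104 adjusted). The blocked fit gave PMEL an adjusted p of 0.0122, in a fit that called 22.5% of all tested genes (12.1% higher). PMEL shares 89 exonic bases (2.28% of its length) with CDK2 on the opposite strand, which had 8441 to 9410 counts in these stranded libraries and a log2 fold change of -0.07 (adjusted p = 0.708). No PMEL promoter window was given in the reference used here.

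GPNMB, a transmembrane glycoprotein related to PMEL that is found in melanosomes and lysosomes, lies on chromosome 7 (23235967 to 23275108, plus strand, 5956 exonic bases). It had 273, 284 and 328 counts under the H295R label and 383, 270 and 270 under the H295R-PM-Ptc+ label. In CPM, replicate 1 labelled H295R-PM-Ptc+ stood highest, at 14.98, and its other replicates, at 10.9 and 11.7, lay within or below the 11.2 to 13.3 of the libraries labelled H295R. The log2 fold change was 0.07 (95% interval -0.25 to 0.38, adjusted p = 0.878), and without that replicate it was -0.09. GPNMB thus had no stable direction in these libraries. Its promoter window held TCATGTG, an E-box with the flanking base that MITF prefers, at 2 positions on the antisense strand, whose first bases lay 123 and 62 bases before the start.

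DCT, dopachrome tautomerase, is an enzyme of melanin synthesis and a common reporter of MITF activity in melanocytes. The gene lies on chromosome 13 (94436808 to 94479682, minus strand, 7543 exonic bases). It had 7, 15 and 11 counts under the H295R label and 17, 12 and 13 under the H295R-PM-Ptc+ label, which is 0.0587 ± 0.0197 and 0.0755 ± 0.0121 FPKM (SD, n = 3). The counts overlapped, and the log2 fold change was 0.35 (95% interval -0.39 to 1.10, adjusted p = 0.661). This interval holds both no change and a rise of over 2-fold, so at this depth no direction could be given.

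The upstream sequence of the DCT start at 94479682 is shown because it held the extended E-box TCATGTG 2 times, once on each strand, with these letters in capitals (CACATGA is TCATGTG read on the other strand). It covers chr13:94479683-94479932 of GRCh38.p14, from RefSeq, and is written in the direction of the gene on the minus strand.
DCT upstream of its start: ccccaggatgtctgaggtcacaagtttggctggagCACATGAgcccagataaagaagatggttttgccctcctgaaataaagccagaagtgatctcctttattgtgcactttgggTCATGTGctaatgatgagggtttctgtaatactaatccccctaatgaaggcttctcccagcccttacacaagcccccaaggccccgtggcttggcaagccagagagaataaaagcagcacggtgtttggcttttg
The first bases of the matches lie 215 and 135 bases before the start. Of all promoter windows, 2.92% held TCATGTG and 11.1% the shorter CATGTG. The window of the other DCT start, at 94549406, held none of the 5 motifs, and neither did those of TFEB, TFE3, TFEC and MLANA.

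MLANA, which encodes the melanosomal antigen Melan-A, lies on chromosome 9 (5890802 to 5910606, plus strand, 3083 exonic bases). It had 0 counts in all 6 libraries, which allows a level of up to 0.0381 to 0.042 FPKM per library (3 counts). MITF averaged 3.64 and 5.59 FPKM in the same libraries, so MLANA was not detected where MITF mRNA was present.

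POU3F2, also called BRN2, is a POU-domain factor of neural progenitors that binds the MITF promoter in melanoma cells. It is a gene of 1 exon on chromosome 6 (98834592 to 98839490, plus strand, 4899 bases). It had 166, 254 and 268 counts under the H295R label and 250, 297 and 272 under the H295R-PM-Ptc+ label, or 6.95, 10 and 10.8 CPM against 9.78, 11.9 and 11.8 CPM. Replicate 1 was the lowest library in both groups, and the groups overlapped. The log2 fold change was 0.27 (SE 0.169, 95% interval -0.12 to 0.65, adjusted p = 0.482). With the replicate block it was 0.28, with 0.052 as its adjusted p, and without replicate 1 labelled H295R it was 0.10. POU3F2 was higher in each of the 3 same-numbered pairs. The other genes of its class were near the floor, with at most 4 counts in a library for POU3F1 and at most 2 for POU3F4, while POU3F3 had 4 to 15.

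The upstream sequence of the POU3F2 start at 98834574 is shown because it also held the TCF/LEF letters found at the MITF-M start, here on the antisense strand, so that the capitals read ATCAAAG. It covers chr6:98834324-98834573 on the plus strand of GRCh38.p14, from RefSeq.
POU3F2 upstream of its start: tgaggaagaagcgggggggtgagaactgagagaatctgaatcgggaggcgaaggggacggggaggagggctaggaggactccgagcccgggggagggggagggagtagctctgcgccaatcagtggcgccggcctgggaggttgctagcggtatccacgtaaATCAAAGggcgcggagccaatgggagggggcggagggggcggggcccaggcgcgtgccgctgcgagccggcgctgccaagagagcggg
The first base of the match lies 88 bases before the start. No other window of the 8 genes that had one (14 windows in all) held CTTTGAT besides those of POU3F2 and MITF.

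**Figure D3:**
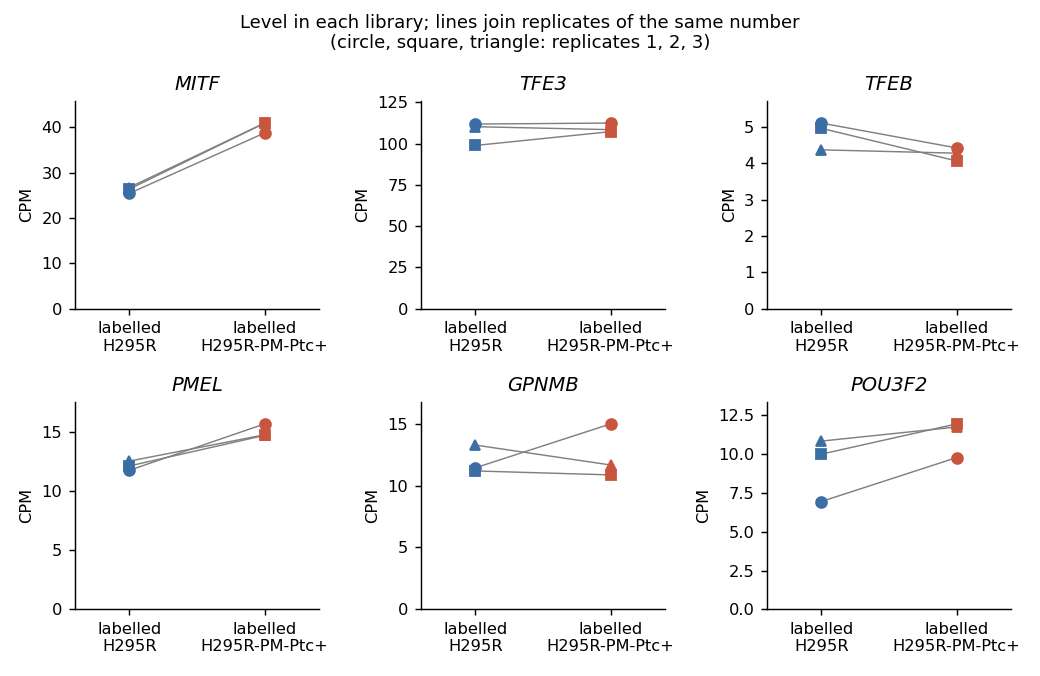
CPM of 6 of the tested genes in each library, on axes that start at 0, with lines that join the replicates of the same number in both groups (circle, square and triangle for replicates 1, 2 and 3). All 3 lines go up from the H295R to the H295R-PM-Ptc+ label for MITF, PMEL and POU3F2 and down for TFEB, and for TFE3 and GPNMB the 3 lines do not all go the same way.

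The order of the per-length levels was TFE3, MITF, PMEL, then POU3F2 and GPNMB, then TFEB and DCT, with TFEC and MLANA under the floor. PMEL, at 3.11 ± 0.1 and 3.86 ± 0.139 FPKM (SD, n = 3), lay below MITF in every library. POU3F2, at 1.89 ± 0.418 and 2.28 ± 0.245 FPKM, and GPNMB, at 2.01 ± 0.192 and 2.10 ± 0.367 FPKM, did not differ from each other beyond their spread.

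The genes around MITF on the chromosome were compared to see whether the region moved as a whole. Of the 20 nearest tested genes, 10 on each side, 9 had a positive log2 fold change, and the median was -0.03 (range -0.21 to 0.45), below the 0.62 of MITF itself. The 20 neighbors of PMEL had a median log2 fold change of -0.03 (range -0.21 to 0.79), and those of POU3F2 one of -0.04 (range -0.46 to 0.18).

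The genes whose profile over the 6 libraries was closest to that of MITF were FAR2, MTSS1, PCSK6, TRIB2 and FAM107A. Likeness was measured as the root mean square difference of log2 CPM, each gene centred on its own mean, among 10160 genes with a mean of at least 10 CPM. The difference was 0.0448 for FAR2 and 0.0583 for FAM107A, against a median of 0.328 over all genes compared. FAR2, a fatty acyl-CoA reductase, rose from 33.6 ± 0.816 to 53.8 ± 2.14 CPM (log2 fold change 0.68, adjusted p = 0.00132). TRIB2, a pseudokinase, rose from 22.2 ± 0.587 to 36.6 ± 0.703 CPM (log2 fold change 0.72, adjusted p = 0.00116). Since these genes were picked for their likeness to a called gene, their tests add no support.

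None of the melanosome and pigment genes passed the adjusted threshold in edgeR or in DESeq2, and 4 of them, all higher, had an unadjusted p under 0.05 in edgeR (17.3% of all tested genes). Of the 16 genes of this list, which includes PMEL, GPNMB, DCT and MLANA, 10 were tested and 9 of these had a positive log2 fold change, with a median of 0.29 against 0.00 over all tested genes. With the replicate block, 4 were called higher: PMEL and the melanosome transport genes RAB38, RAB27A and MYO5A, in a fit that called 12.1% of all tested genes higher. RAB38, a small GTPase that brings enzymes to the melanosome, had 153, 149 and 146 CPM under the H295R label and 200, 175 and 172 CPM under the H295R-PM-Ptc+ label. It reached an adjusted p of 0.0965, or 0.00031 with the block, for a log2 fold change of 0.29. RAB27A, which tethers melanosomes to actin, had 24.5 ± 1.65 and 30.01 ± 1.46 CPM (log2 fold change 0.29, adjusted p = 0.102, and 0.00613 with the block). For both genes, the groups did not overlap. MYO5A, the myosin that carries melanosomes, had 70.8 ± 17.4 and 84.1 ± 20.6 CPM with overlapping groups (log2 fold change 0.25, adjusted p = 0.632, and 0.00138 with the block). These 3 genes also serve vesicle transport in cells that make no pigment.

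The genes that define pigment cells were at or near 0. TYR, which encodes tyrosinase, the rate-limiting enzyme of melanin synthesis, had 1 count in 1 library and 0 in the others, and SLC24A5, OCA2 and MLPH had at most 2 counts in a library. SOX10 and PAX3, the lineage factors that drive MITF in melanocytes, had 0 counts in all 6 libraries. The 5 melanocyte markers TYR, TYRP1, SOX10, PAX3 and SLC45A2 summed to 1.25 to 2.09 CPM under the H295R label and 2.03 to 2.57 CPM under the H295R-PM-Ptc+ label, of which TYRP1 made up most, at 29 to 51 counts (log2 fold change 0.17, adjusted p = 0.77). SLC45A2, a melanosomal transporter, had 7, 9 and 2 counts under the H295R label and 16, 13 and 10 under the H295R-PM-Ptc+ label, without overlap (log2 fold change 1.11, adjusted p = 0.243). TRPM1, a cation channel gene first known from melanocytes, had more counts under the H295R label, with 5, 9 and 7 there and 1, 1 and 0 under the H295R-PM-Ptc+ label. TRPM1 and SLC45A2 were named after their values were seen. TRPM1 did not pass the filter, and its ratio of counts was 10.4 (2.55 to 91.8, exact interval for counting error only). Fitted without a filter, its adjusted p was 0.0259.

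Among 11 regulators of MITF in melanocytes, 9 were tested and LEF1 was called higher, where 2.42% of all tested genes were. LEF1, the Wnt effector that binds the TCF/LEF element, had 57.1, 57.8 and 59.8 CPM under the H295R label and 81.7, 76.1 and 80.0 CPM under the H295R-PM-Ptc+ label. The groups were apart, with a log2 fold change of 0.44 (SE 0.0695, adjusted p = 0.0099). The adjusted p was 0.0581 without replicate 3 labelled H295R and 0.0665 without replicate 3 labelled H295R-PM-Ptc+, while the log2 fold change stayed at 0.45 and 0.43. With the block, LEF1 had an adjusted p of 9.74e-06. SNAI2, the zinc finger factor Slug, had 51.9 ± 2.37 and 41.4 ± 2.95 CPM (log2 fold change -0.33, adjusted p = 0.0632, and 0.000859 with the block), and its groups did not overlap. The zinc finger repressor ZEB2 had 70.0 ± 10.8 and 58.4 ± 5.60 CPM with overlapping groups (log2 fold change -0.26, adjusted p = 0.319, and 0.00234 with the block). KIT, the receptor that signals to MITF, had 4, 4 and 1 counts against 10, 17 and 11 (log2 fold change 2.04, adjusted p = 0.0552, and 0.00637 with the block). KITLG, its ligand, was also called higher with the block (adjusted p = 0.0431, and 0.281 without). The blocked fit called 5 of the 9, against 22.5% of all tested genes. CREB1, which encodes CREB, had 6.53, 6.06 and 5.7 CPM under the H295R label and 4.26, 5.39 and 4.67 CPM under the H295R-PM-Ptc+ label. Its groups did not overlap (log2 fold change -0.35, unadjusted p = 0.0304 and adjusted p = 0.228 in edgeR, and 0.0561 with the block). CREB1, KIT and KITLG were named after their values were seen. At an unadjusted p under 0.05 there were 5 of the 9, 3 of them higher, against 17.3% of all tested genes. The median of the list was 0.14.

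**Figure D4:**
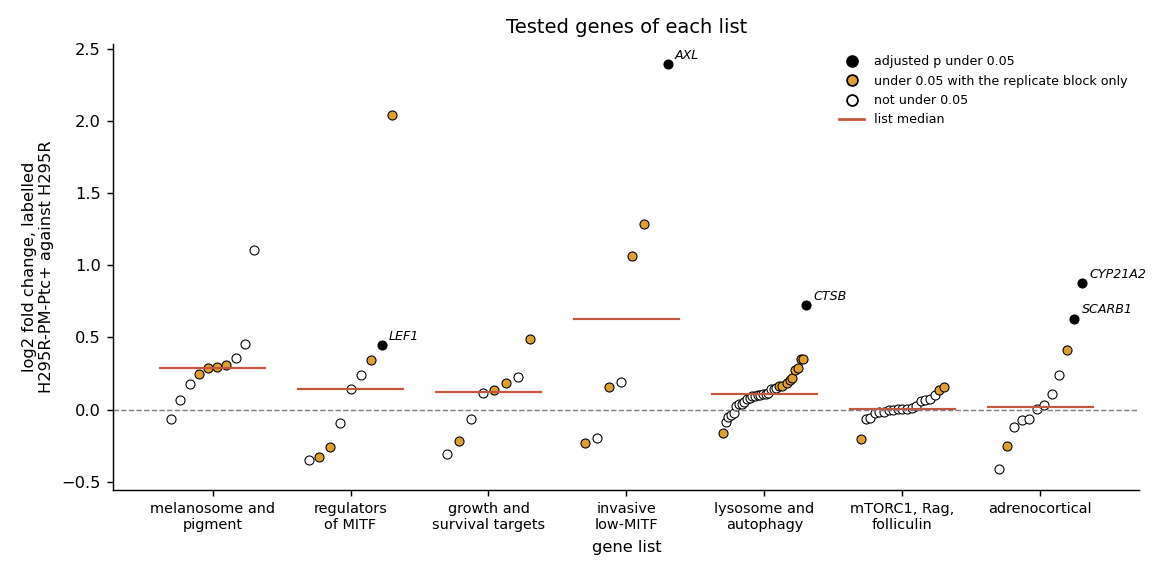
Log2 fold change of each tested gene by gene list, H295R-PM-Ptc+ label over H295R label, with a line at the list median; filled points had an adjusted p under 0.05, orange points only with the replicate block, open points in neither fit, and 2 genes that are not reported here are not drawn but are counted in the medians. Of the lists drawn, the invasive markers have the highest median, 0.63, with AXL among those called. The lysosome and autophagy list lies mostly above 0 with CTSB called.

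The lysosomal and autophagy targets of TFEB and TFE3 were next compared, because both factors, and MITF in some cells, act on them. Of 33 genes, 32 were tested, 1 was called higher and none lower, and 27 of the 32 had a positive log2 fold change with a median of 0.11. At an unadjusted p under 0.05 there were 8 of the 32, all higher, against 17.3% of all tested genes, and the 1 call compares with 3.73%. CTSB, which encodes the protease cathepsin B, had 125, 130 and 137 CPM under the H295R label and 244, 197 and 207 CPM under the H295R-PM-Ptc+ label, a log2 fold change of 0.72 (SE 0.0954, adjusted p = 0.00426). With the replicate block, 11 genes of this list were called higher and 1 lower, against 12.1% and 10.4% of all tested genes in that fit. The 1 called lower was SQSTM1, at 236 ± 13.8 and 211 ± 9.14 CPM without overlap (log2 fold change -0.16, adjusted p = 0.341, and 0.0122 with the block). Among the more abundant genes, ATP6AP1 was at 350 ± 15.4 and 357 ± 9.11 CPM with overlapping groups (log2 fold change 0.03, adjusted p = 0.905). LAMP1, the lysosomal membrane protein, was at 228 ± 12.7 and 259 ± 5.03 CPM (log2 fold change 0.18, adjusted p = 0.252, and 0.00647 with the block). PSAP, the precursor of the saposins, was at 1728 ± 33.2 and 1820 ± 64.2 CPM with overlapping groups (log2 fold change 0.07, adjusted p = 0.697).

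The mTORC1, Rag and folliculin genes, only some of which act to hold TFEB and TFE3 in the cytoplasm, showed no call. All 19 genes of the mTORC1, Rag and folliculin list were tested, and 0 passed in edgeR or DESeq2 (1 of the 19 at an unadjusted p under 0.05 in edgeR, against 17.3% of all tested genes), with a median of 0.01. MTOR, the kinase itself, had 113 ± 13.1 and 124 ± 18.0 CPM (log2 fold change 0.13, adjusted p = 0.666, and 0.0489 with the block). RRAGA, a Rag GTPase, had 112 ± 5.35 and 110 ± 14.5 CPM (log2 fold change -0.02, adjusted p = 0.962). With the block, FNIP1 was also called higher and RRAGD lower, at adjusted p of 0.044 and 0.00616, which with MTOR makes 3 of the 19, against 22.5% of all tested genes in that fit. Both were named after their values were seen.

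Of 9 growth and survival targets of MITF, 8 were tested and 0 passed in edgeR or DESeq2 (2 of the 8 at an unadjusted p under 0.05 in edgeR, against 17.3% of all tested genes), with a median of 0.12. HIF1A, the hypoxia-inducible factor, had 668 ± 66.9 and 723 ± 22.9 CPM (log2 fold change 0.12, adjusted p = 0.588). CDK2, the cell cycle kinase whose gene lies next to PMEL, had 379 ± 12.3 and 362 ± 7.86 CPM (log2 fold change -0.07, adjusted p = 0.708). With the block, TBX2, DIAPH1 and DICER1 were called higher and MET lower, at adjusted p of 0.00286, 0.0288, 0.00931 and 0.0109, where that fit called 12.1% of all tested genes higher and 10.4% lower.

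Of 9 markers of the invasive, low-MITF state of melanoma cells, 8 were tested, 2 were called higher and none lower, and the median was 0.63. An unadjusted p under 0.05 was reached by 4 of the 8, all higher. Over all tested genes, 3.73% were called and 17.3% reached that unadjusted p. AXL, a receptor tyrosine kinase, had 0.377, 0.709 and 0.769 CPM under the H295R label and 2.97, 3.18 and 3.71 CPM under the H295R-PM-Ptc+ label, from 9 to 19 and 76 to 86 counts. Its log2 fold change was 2.39 (SE 0.25, adjusted p = 0.00132). In these libraries, AXL was thus higher under the same label as MITF, and its groups did not overlap. With the block, TNC, THBS1 and ROR2 were called higher as well and WNT5A lower, in a fit that called 22.5% of all tested genes.

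The adrenocortical identity of the cells was checked with 13 markers, which summed to 1740 to 2090 CPM under the H295R label and 2310 to 2560 CPM under the H295R-PM-Ptc+ label. CYP11B1 alone was at or under 3 counts in every library. NR5A1, which encodes the adrenal factor SF-1, had 367 ± 40.8 and 351 ± 10.4 CPM with overlapping groups (log2 fold change -0.06, adjusted p = 0.797). Of 12 markers tested, SCARB1 and CYP21A2 were called higher and none lower, against 2.42% and 1.32% of all tested genes. The log2 fold change was positive for 7 of the 12 and negative for 5, with a median of 0.02. The sum is weighted by SCARB1, the highest of the markers in CPM. At an unadjusted p under 0.05 there were 3 of the 12, and the third, INHA, the inhibin alpha subunit, had a negative sign (log2 fold change -0.41, adjusted p = 0.272). SCARB1, the receptor for high-density lipoprotein, had 817 ± 47.6 and 1263 ± 44.5 CPM (log2 fold change 0.63, adjusted p = 0.00345). CYP21A2, the steroid 21-hydroxylase, had 12.8 ± 2.19 and 23.5 ± 1.43 CPM (log2 fold change 0.88, adjusted p = 0.0067), but reads can be shared with its near-identical pseudogene CYP21A1P, so its value is uncertain. With the block, STAR was also called higher and CYP11A1 lower, at adjusted p of 3.91e-06 and 0.001, against 0.346 and 0.391 without it and with overlapping groups. That fit called 4 of the 12, and 22.5% of all tested genes. INHA, STAR and CYP11A1 were named after their values were seen.

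Markers of other cells that express these genes were low. The 6 macrophage markers, a cell type in which GPNMB and TFEC are also known, summed to 0.688 to 1.18 CPM under the H295R label and 1.17 to 1.45 CPM under the H295R-PM-Ptc+ label, with PTPRC and AIF1 at 0 in all 6 libraries. The 5 fibroblast markers summed to 7.72 to 8.94 and 9.12 to 10.9 CPM with LUM at 0, and the 4 endothelial markers to 0.0394 to 0.251 and 0.121 to 0.274 CPM. Of the Schwann cell markers, SOX10 was at 0. The 4 chromaffin cell markers summed to 0.787 to 0.809 and 1.04 to 1.53 CPM, with PNMT and DBH at 0. Their part in the results was not tested. In RNA from a whole culture, a change in the number of cells that express a gene and a change in the RNA per cell cannot be told apart.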

How the data were processed

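RNA of 6 human H295R libraries, 3 labelled parental and 3 labelled H295R-PM-Ptc+, was sequenced as paired-end reads from stranded libraries. The kit is named as an mRNA kit in the study's methods and as a total RNA kit in the labels, which give polyA RNA as the molecule. Reads were mapped by the authors with STAR 2.4.0a (hg38). Fragments were then assigned to gene names of an Ensembl annotation by featureCounts, using the strand and including multiply mapped reads. The counts deposited by the authors are whole numbers, neither normalized nor filtered, with 1 column per library. The submitters' processing notes name Subread 1.5.0-p3, and the methods name another version. The deposited table was used whole.

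Groups and replicate numbers were taken from the labels. Genes were filtered with filterByExpr, scaled with TMM factors and fitted by quasi-likelihood in edgeR 4.0.16 (R 4.3.3; glmQLFit, then a two-sided glmQLFTest of the group, without covariates). P-values were adjusted by Benjamini-Hochberg over the 16710 tested genes, which held 99.89% of the counts. A call is an adjusted p under 0.05, every adjusted p in the text is from this edgeR fit unless another is named, and intervals cover 95%. CPM use TMM-scaled library sizes, and FPKM were computed here from the summed exon length in the deposited table. Values are mean ± SD of 3 libraries. A floor of 3 counts per library was used for genes that were not detected. Floors and intervals on counts cover counting error only. The fits were tested on simulated data. Alternatives were DESeq2 1.42.0, RLE size factors, no filter, at least 10 counts in every library, the replicate number as a block, and leaving out each library.

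Same-numbered replicates pair the groups: the deviations of log2 CPM from the group means correlated across genes at 0.594, 0.405 and 0.325 for replicates 1, 2 and 3, against -0.443 to 0.211 for different numbers. The shared number codes come from the labels. The edgeR fit without covariates leaves this pairing out, because the study's methods name no covariate, so its p-values do not use it. The blocked fit takes it in.

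The members and lists were chosen with earlier results of these data known. The genes named are all members, PTCH1, the called genes of each list, the 5 profiles nearest to MITF, and genes at or near 0. In lists with fewer than 2 called, some of the more highly expressed tested genes were also named (at most 4 names a list). These were not always the highest of their list. Genes that were called only with the replicate block and were not named by these rules, and TRPM1, SLC45A2, CREB1 and INHA, were named after their values were seen. A few list and marker genes are not reported here, and they remain in the counts and medians of their lists. Promoter windows came from RefSeq (GRCh38.p14), from which 8 of the 9 genes had at least 1 window, and parts that lie in exons of other transcripts were not printed.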

Additional observations from a re-analysis of the deposited data

How the results depend on the processing

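MITF kept its direction and its call under every alternative run: DESeq2, RLE size factors, no filter, at least 10 counts in every library, the replicate block and each library left out, with adjusted p from 9.34e-08 to 0.0199. The replicate block raised the number of the 9 genes called higher from 1 to 2, by PMEL, and changed the call of no other of them. Over all genes, it raised the calls from 404 to 2028 higher and from 220 to 1730 lower. Without a filter, there were 698 and 413, and DESeq2 called 348 lower. Without 1 library, 161 to 529 genes were called higher and 57 to 281 lower. The count of calls in each list rose with the block to 4 melanosome and pigment genes, 5 regulators of MITF, 4 growth and survival targets, 6 invasive markers, 12 lysosome and autophagy targets, 3 mTORC1 genes and 4 adrenocortical markers. Without a filter, the calls were 1 pigment gene (TRPM1), 3 regulators, 1 growth and survival target (TBX2), 4 invasive markers and 3 lysosome genes. DESeq2 called 2 regulators (SNAI2 besides LEF1), 3 invasive markers (TNC gained) and 3 lysosome genes. With at least 10 counts in every library, 1 invasive marker was called, since AXL was not tested, and DCT had no value. Without 1 library, 0 to 2 regulators, 2 to 3 invasive markers and 1 to 2 lysosome genes were called. With 1 library left out, TFE3 ranged from -0.0222 (without replicate 2 labelled H295R) to 0.0641, and GPNMB from -0.0937 (without replicate 1 labelled H295R-PM-Ptc+) to 0.157, both as log2 fold changes. Of 174 values of single named genes under the alternatives, 164 kept their direction and their side of the threshold. The cause of these changes was not tested. Depth limits DCT, TFEC and MLANA, and no scaling corrects an exchange of the group names.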
